A study of Mus musculus with 32 samples.

Results

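Gpr84, Trem1, Ch25h, Fpr1 and Fpr2 are 5 of the 54446 genes counted by RNA sequencing in 32 libraries of mouse liver tumors. They are described here over all libraries. Gpr84, Trem1 and Ch25h were chosen by their measured values, for lower levels in tumors given the high than the low dose of regorafenib, while Fpr1 and Fpr2 were added as related receptors of myeloid cells. All tumors were grown orthotopically, in the liver of BALB/c mice, from 1 mouse liver cancer cell line, BNL-MEA, so the libraries hold tumor cells, host immune cells and adjoining liver together. Regorafenib is a small molecule that inhibits VEGF receptors and other kinases. In the dose experiment, 4 libraries came from vehicle, 3 from a low dose of 5 mg/kg/day regorafenib and 3 from a high dose of 20 mg/kg/day. The DC-101 experiment had vehicle (n = 4), the same low dose (n = 3) and DC-101, an antibody that blocks VEGFR2, given at 800 ug on days 1, 3 and 5 (n = 3). In the anti-PD1 experiment, vehicle, low dose regorafenib, an antibody to the T cell checkpoint receptor PD1, and low dose regorafenib with that antibody had 3 libraries each. The experiment is a batch in the labels, and each treatment was therefore compared with the vehicle of its own experiment.

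All 5 genes belong to the innate immune response. GPR84 is a G protein-coupled receptor of neutrophils, monocytes and macrophages that responds to medium-chain fatty acids. TREM1 is an activating receptor of neutrophils and monocytes that signals through the adaptor DAP12, the product of Tyrobp, and amplifies the response to microbial products. CH25H converts cholesterol into 25-hydroxycholesterol, an oxysterol made by stimulated macrophages, and its expression is known to be induced by interferon and Toll-like receptor signals. FPR1 and FPR2 are chemoattractant receptors that guide neutrophils and monocytes toward N-formyl peptides of bacteria and damaged mitochondria, and FPR2 also binds serum amyloid A and annexin A1.

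The 5 genes lie in 4 places of the mouse genome (GRCm38, GENCODE annotation), and all are protein coding. Gpr84 (ENSMUSG00000063234.5) is at chr15:103308235-103310612 on the minus strand, and Ch25h (ENSMUSG00000050370.4) at chr19:34473778-34475164 on the minus strand. Trem1 (ENSMUSG00000042265.13) is at chr17:48232768-48246924 on the plus strand, 852 bases from its family member Trem3. Fpr1 (ENSMUSG00000045551.7, chr17:17876471-17883940, minus strand) and Fpr2 (ENSMUSG00000052270.7, chr17:17887824-17893952, plus strand) are neighbors on opposite strands, 3883 bases apart. Reads could be shared with annotated genes that overlap 4 of them. The overlapping genes had 0 to 11 counts per library for Gm49482 (antisense of Gpr84), 0 or 1 for AC241601.2 (within Trem1), 5 to 66 for Gm26902 (opposite strand of Ch25h) and 0 or 1 for Fpr3 (same strand as Fpr2). Whether the authors' counting used strand is not given in the sources used here.

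The sequences before the start sites of the 3 chosen genes are shown because Gpr84 and Ch25h had the most similar patterns over the libraries, and Trem1 is the remaining gene of that choice. They were taken from RefSeq promoters (GRCm38.p6), printed 5′ to 3′ on the strand of the gene and without bases that GENCODE places inside the gene. Capitals mark motif matches. The Gpr84 stretch was 76 bases at chr15:103310613-103310688 (minus strand), the Ch25h stretch 234 bases at chr19:34475165-34475398 (minus strand) and the Trem1 stretch 250 bases at chr17:48232489-48232738 (plus strand).
Gpr84: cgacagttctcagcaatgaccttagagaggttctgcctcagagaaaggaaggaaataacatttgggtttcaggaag
Ch25h: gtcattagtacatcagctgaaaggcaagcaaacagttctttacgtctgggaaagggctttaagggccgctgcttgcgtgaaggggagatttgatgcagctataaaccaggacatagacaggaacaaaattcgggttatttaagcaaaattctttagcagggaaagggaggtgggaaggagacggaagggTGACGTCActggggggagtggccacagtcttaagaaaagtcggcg
Trem1: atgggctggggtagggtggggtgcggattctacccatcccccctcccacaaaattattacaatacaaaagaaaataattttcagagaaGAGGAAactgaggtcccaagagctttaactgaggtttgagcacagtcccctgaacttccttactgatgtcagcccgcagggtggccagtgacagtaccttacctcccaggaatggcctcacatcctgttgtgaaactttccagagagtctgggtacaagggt
Over the 250 bases before the RefSeq start, 7 motifs were searched on both strands in all 5 genes, each of which had a RefSeq promoter. The capitals in Ch25h are a match to the cAMP response element TGACGTCA, at chr19:34475202-34475209, and this element was held by 1.55% of the 32851 RefSeq promoters. Its first 5 letters, TGACG, occurred in 17.8% of promoters, and both matches of Ch25h to them are inside that element. The capitals in Trem1 are a match to the PU.1 motif GAGGAA, which Fpr2 also held on the other strand and which occurred in 23.3% of promoters. No member had a match to the NF-kB motif (3.9% of promoters), to AP-1 as TGANTCA (6.75%), to the ISRE core (2.98%) or to C/EBP as TTGCNNCAA (1.74%), and Gpr84 and Fpr1 had no match to any of the 7. These are letter matches and say nothing about binding of a factor.

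Total counts were 16.8 to 27.7 M per library before scaling to counts per 1 M reads (CPM). Mitochondrial genes had 0.26% to 5.37% of counts. High dose replicate 1 had the highest share and the smallest TMM factor (0.678), and vehicle 2 and low dose 2 of the anti-PD1 experiment had the lowest shares (0.26% and 0.312%). Of the markers of hepatocellular carcinoma, Krt8 and Krt18 had at least 105 and 22 counts in each library, whereas Afp and Gpc3 had as few as 1. The hepatocyte gene Alb ranged from 245 to 493757 counts, and the summed hepatocyte markers of a group spanned up to 87538 CPM (high dose). The neutrophil marker Ly6g had 0 to 12 counts. In such bulk samples, fewer cells of a type and less RNA per cell cannot be told apart.

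On a per length scale, Ch25h was the most abundant of the 5 genes, with a median of 77.2 TPM (counts per base of exonic length, scaled to a common total) over the 32 libraries (range 1.93 to 408). The median was 21.9 TPM for Fpr2 (range 2.27 to 96.5), 12.2 for Trem1 (0.191 to 45.9), 10.3 for Fpr1 (0.869 to 35.0) and 9.75 for Gpr84 (0.111 to 38.9). By median TPM, Gpr84 was at percentile 82.6 and Ch25h at percentile 96.2 of all genes, with the other 3 between them.

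In the dose experiment, all 5 genes had their highest mean level at the low dose, an intermediate level under vehicle and the lowest at the high dose. For Gpr84, Trem1 and Ch25h the order of high and low dose was how they were chosen, and their values here are a description without a test. Gpr84 had 3.13, 2.74, 3.93 and 4.37 CPM under vehicle, 12, 17.8 and 8.87 at the low dose, and 0.113, 0.623 and 0.157 at the high dose. Every low dose library was above and every high dose library below the range of vehicle. The high dose values rested on 2, 17 and 4 reads, against 226 to 511 reads at the low dose. Mean log2 CPM of Gpr84 was 3.64 ± 0.50 (SD, n = 3) at the low dose, 1.83 ± 0.30 (n = 4) under vehicle and -1.65 ± 1.0 (n = 3) at the high dose. Its fitted log2 change from low to high dose was -5.36 (SE 0.62). Without high dose replicate 2, which had most of the reads of its group, the log2 change of Gpr84 was -6.50 against the low dose and -4.63 against vehicle.

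**Figure D1:**
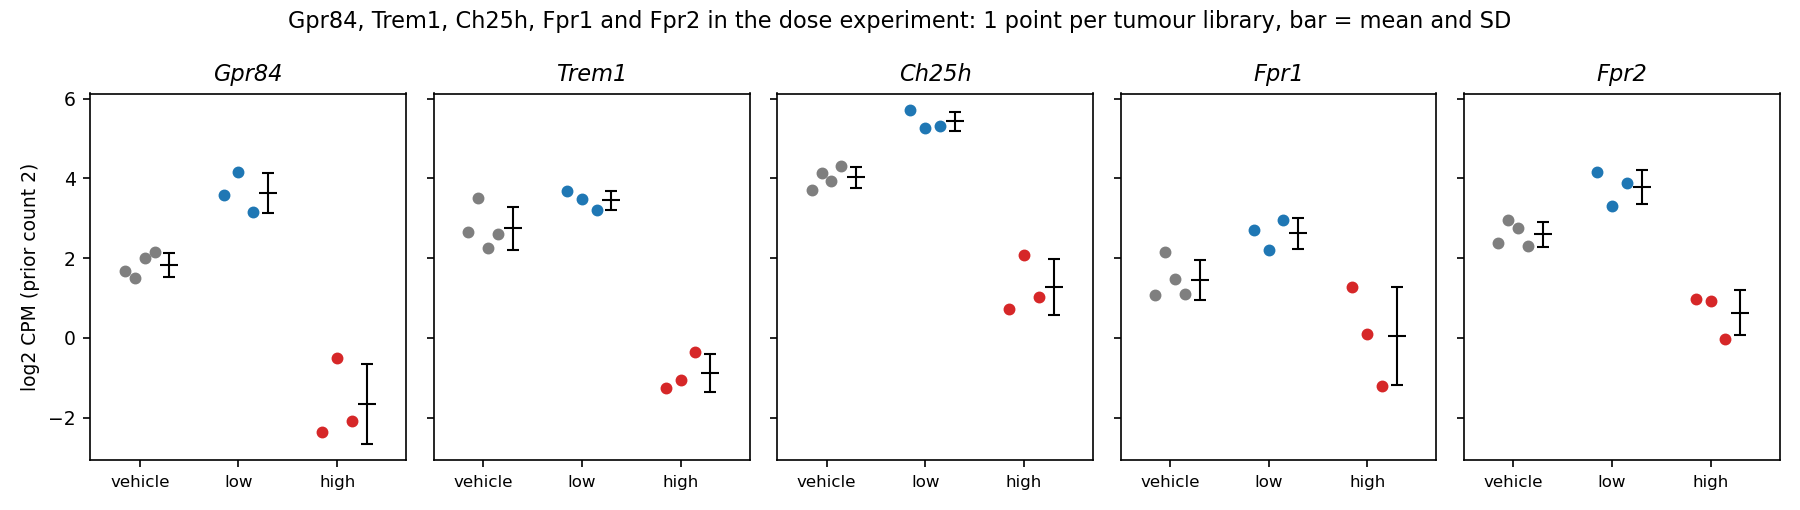
Levels of the 5 genes in the dose experiment, in log2 CPM (prior count 2) on the y axis, with 1 point per tumor library and a bar at the mean with its SD for vehicle (n = 4), low dose (n = 3) and high dose regorafenib (n = 3). The high dose libraries lie below every low dose library for all 5 genes, and below every vehicle library for all but Fpr1.

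Trem1, the DAP12-coupled receptor, had 6.17, 11.2, 4.66 and 5.95 CPM under vehicle, 12.7, 11.1 and 9.14 at the low dose, and 0.340, 0.403 and 0.706 at the high dose. Vehicle and low dose overlapped, since vehicle replicate 2 was above 2 low dose libraries, and the high dose libraries were below all others. Its log2 change was 0.65 (SE 0.34) at the low dose and -3.83 (SE 0.42) at the high dose, each against vehicle. Ch25h, the oxysterol-forming enzyme, had 13, 17.4, 15.1 and 19.8 CPM under vehicle, 52.2, 38.4 and 39.8 at the low dose, and 1.58, 4.11 and 1.96 at the high dose. None of its 3 groups overlapped. The log2 change of Ch25h against vehicle was 1.41 (SE 0.31) at the low dose and -2.67 (SE 0.34) at the high dose. Between low and high dose, the log2 change was -4.48 (SE 0.44) for Trem1 and -4.08 (SE 0.38) for Ch25h.

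The formyl peptide receptors followed the same order, and of their changes only those of Fpr2 at the high dose passed the test. Fpr2 had 5.10, 7.71, 6.72 and 4.84 CPM under vehicle, 17.8, 9.84 and 14.6 at the low dose, and 1.87, 1.83 and 0.902 at the high dose. The 3 groups of Fpr2 did not overlap. Fpr2 fell at the high dose, with a log2 change of -1.99 (SE 0.35) against vehicle (edgeR quasi-likelihood F-test, Benjamini-Hochberg adjusted p = 0.0240) and of -3.20 (SE 0.38) against the low dose (adjusted p = 0.00625). Fpr1 had 2.02, 4.34, 2.68 and 2.06 CPM under vehicle, 6.46, 4.50 and 7.73 at the low dose, and 2.32, 0.990 and 0.353 at the high dose. High dose replicate 1 lay within the vehicle range of Fpr1, and the 2 other high dose libraries below it. The log2 change of Fpr1 was -1.20 (SE 0.57, adjusted p = 0.15) from vehicle and -2.37 (SE 0.62, adjusted p = 0.0638) from low to high dose. The former ranged from -2.03 without high dose replicate 1 to -0.81 without high dose replicate 3. The low dose changes against vehicle were 1.17 (SE 0.54) for Fpr1 and 1.21 (SE 0.32) for Fpr2 on the log2 scale, with adjusted p of 0.991 and 0.738.

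Of Fpr1 and Fpr2, 1 passed the threshold in each high dose comparison, in which 15.6% of 16525 genes passed against vehicle and 4.22% against the low dose. At the low dose 0 of 2 passed in edgeR, as did 0% of all genes, with 1 (Fpr2) at an unadjusted p under 0.05, against 4.94% of all genes. DESeq2 called 1 (Fpr2), among 85 of 16525 genes called, and limma voom 0 of the 2. Every low dose library was above every vehicle library for 4 of the 5 genes, all but Trem1, and for 6.92% of all genes. Every high dose library was below every vehicle library for 4 of the 5, all but Fpr1, and for 16.6% of all genes, and below every low dose library for all 5 and for 16.2% of all genes. These counts include the 3 genes chosen by the same contrast, and nothing is read from them. The call of Fpr2 against vehicle was lost without any 1 of the 4 vehicle libraries (adjusted p 0.0613 to 0.0732). Over all genes, 15 to 83 passed in those fits, against 2582 with all libraries, and the log2 change of Fpr2 was -2.08 to -1.86. Both calls of Fpr2 were lost when only the groups compared were fitted (adjusted p 0.0734 against vehicle and 0.146 against the low dose). Then 4 of 16071 and 0 of 16069 genes passed. Fpr1 passed between low and high dose without high dose replicate 1 (log2 change -3.21, adjusted p = 0.0219) or replicate 3 (-1.99, adjusted p = 0.0306). In these fits 594 of 16907 and 4488 of 17092 genes passed, against 697 of 16525 with all libraries.

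Among other genes of the members' pathways, several chemoattractant receptors and TREM genes fell at the high dose, while the oxysterol pathway had more rises than falls. Over all 16525 genes, 1455 rose and 1127 fell against vehicle (15.6% together), and the list counts stand beside that share. When any 1 vehicle library was left out, 15 to 83 genes passed in all, and 4 did with only the groups compared. Of 13 other chemoattractant receptors, 5 fell and 0 rose against vehicle (median log2 change -0.91, against 0.02 over all genes). They included the chemokine receptors Ccr1 (-2.73, adjusted p = 0.0143), Cx3cr1 (-2.51, adjusted p = 0.0143) and Ccr2 (-3.05, adjusted p = 0.0170). Of 12 genes of the TREM family, its ligand and the DAP12 signaling chain, 6 fell, among them Trem3 (-2.82), the DAP12 gene Tyrobp (-1.42) and the signaling adaptor Card9 (-1.76), with adjusted p of 0.0264, 0.0313 and 0.0240. The gene that rose in that list was Pglyrp1, which encodes a TREM1 ligand (log2 change 1.80, adjusted p = 0.0322). Of 8 tested receptors of fatty acids and other metabolites, Gpr65 (-1.90) and Gpr183 (-2.50) fell, both with adjusted p = 0.0159, and 0 rose. Of 20 macrophage activation genes 4 fell, including the cytokine gene Il1b (-2.75, adjusted p = 0.0143), and 0 rose. Of 10 relatives and ligands of the formyl peptide receptors, 5 were tested and 0 passed by edgeR, with 1 higher and 0 lower at an unadjusted p under 0.05 (40.1% of all genes) and a median log2 change of 2.29.

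Of 12 genes of the oxysterol pathway, 5 rose and 1 fell at the high dose against vehicle (median log2 change 1.48). The gene that fell was Gpr183, the receptor of a dihydroxylated oxysterol that CH25H and CYP7B1 form in sequence. Those that rose were the sterol hydroxylase genes Cyp46a1 (2.14), Cyp27a1 (3.61) and Cyp7b1 (4.46), the bile acid enzyme gene Hsd3b7 (3.02) and the cholesterol exporter gene Abca1 (1.23), with adjusted p between 0.0148 and 0.0467. Cyp27a1, Cyp7b1 and Hsd3b7 are also expressed in hepatocytes, and all 12 hepatocyte markers had higher values at the high dose (median log2 change 4.03, 1 passing the test), with summed levels of 1287 to 6155 CPM under vehicle and 3274 to 87538 CPM at the high dose. The tested lymphocyte markers also had log2 changes above 0 at the high dose. Of 7 tested T and NK cell markers 4 rose against vehicle (median log2 change 1.77, summed levels of 7.78 to 15.6 CPM under vehicle and 19.2 to 49.6 CPM at the high dose), and of 5 B cell markers 2 rose (median 3.93, 1.94 to 3.34 and 2.74 to 52.6 CPM), while 0 of either list fell. These counts were 0 with total count scaling, and 0 without high dose replicate 2 or any 1 vehicle library, with all medians above 0. With 1 vehicle library left out, 15 to 83 of all genes passed. Whether liver tissue or lymphocytes in the sample had a part in these changes was not tested.

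The summed level of 14 monocyte and macrophage markers had the same order over the groups as the members. It was 3142 to 5010 CPM under vehicle, 6242 to 8055 at the low dose and 1001 to 2441 at the high dose, without overlap. Of the 14, 11 fell at the high dose against vehicle, among them Itgam (log2 change -2.80) and Fcgr1 (-1.85), and 0 rose, while 2 had a change above 0. At the low dose 0 of 14 passed in edgeR, with 8 higher at an unadjusted p under 0.05, against 4.94% of all genes. Neutrophil markers had 197 to 353, 213 to 386 and 306 to 345 CPM in the same order of groups, and 0 of 13 passed in edgeR at the high dose, with 5 higher at an unadjusted p under 0.05, against 40.1% of all genes. No marker of these lists was at 0 in all libraries of a group. With the monocyte and macrophage score as a covariate, an alternative added after the data were seen, the log2 change from low to high dose was -1.64 (SE 0.99) for Gpr84, -2.13 (SE 0.71) for Ch25h, -5.75 (SE 1.29) for Trem1, -4.23 (SE 1.69) for Fpr1 and -3.00 (SE 1.10) for Fpr2. The changes of Gpr84 and Ch25h were closer to 0 than without it, and those of Trem1 and Fpr1 were farther from 0, with SEs larger than without it. The score itself separates the dose groups without overlap. Against vehicle, the log2 changes at the low and high dose became 0.53 and -1.11 for Gpr84 and 0.72 and -1.41 for Ch25h. They became 1.10 and -4.65 for Trem1 and 1.79 and -2.44 for Fpr1, and the low dose change of Fpr2 became 1.14. Fpr2 no longer passed in that fit, with adjusted p = 0.733 against the low dose and 0.538 against vehicle (log2 change -1.86). There 1 of 16525 genes passed against the low dose and 64 against vehicle, where 697 and 2582 passed without the score. The list counts at the high dose rested on the vehicle group, as did the count over all genes. With 1 vehicle library left out, 15 to 83 of all genes passed. In these fits 0 or 1 of the 14 monocyte and macrophage markers and 0 to 2 of the 13 chemoattractant receptors fell. Without 1 vehicle library, 0 TREM genes, 0 or 1 activation genes and 0 or 1 oxysterol genes passed in each direction. With scaling to total counts 2 of the 14 markers fell. These list alternatives were also added after the data were seen.

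In the DC-101 experiment, whose libraries did not choose the genes, low dose regorafenib had the highest mean level of all 5 genes, followed by DC-101 and then vehicle. Gpr84 had 1.36, 3.69, 5.64 and 0.180 CPM under vehicle, 18.7, 19.9 and 9.30 at the low dose, and 10.3, 1.81 and 4.84 with DC-101. Ch25h had 9.12, 28, 39.1 and 1.80 CPM under vehicle, 136, 168 and 82.2 at the low dose, and 55.2, 9.20 and 30.4 with DC-101. Both genes were lowest in the same vehicle library (replicate 4, with 4 and 40 reads), highest in the same vehicle library (replicate 3) and ranked alike in the DC-101 libraries. The low dose libraries were above all vehicle libraries for both, and above all DC-101 libraries for Ch25h. Mean log2 CPM was 3.93 ± 0.61, 2.20 ± 1.23 and 0.77 ± 1.95 for Gpr84 and 6.95 ± 0.53, 4.65 ± 1.31 and 3.56 ± 1.97 for Ch25h, at the low dose, with DC-101 and under vehicle. The log2 change at the low dose was 2.56 (SE 0.92) for Gpr84 and 2.72 (SE 0.92) for Ch25h, and neither passed (adjusted p = 0.22 and 0.207). The spread within the vehicle group was thus larger than its distance to DC-101 for both genes.

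Trem1 had 11.5, 6.98, 8.46 and 6.02 CPM under vehicle, 28.5, 40.8 and 21.1 at the low dose, and 20.7, 15.8 and 18.0 with DC-101. The 3 groups did not overlap, and the vehicle libraries stood closer together than for Gpr84 and Ch25h. Its log2 change at the low dose was 1.87 (SE 0.27, adjusted p = 0.0753). Fpr1 had 4.56, 2.27, 4.23 and 1.30 CPM under vehicle, 6.86, 13.7 and 11.2 at the low dose, and 6.52, 6.85 and 7.26 with DC-101. Fpr2 had 6.01, 6.0, 12.7 and 3.10 CPM under vehicle, 17.6, 31.8 and 20.0 at the low dose, and 10.9, 7.74 and 8.98 with DC-101. Vehicle did not overlap with the low dose for either receptor, nor with DC-101 for Fpr1. The log2 changes at the low dose were 1.78 (SE 0.41, adjusted p = 0.115) for Fpr1 and 1.73 (SE 0.42, adjusted p = 0.122) for Fpr2.

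At the low dose of the DC-101 experiment, 0 of the 5 genes passed in edgeR, where 4 of 16138 genes (0.0248%) did. All 5 had an unadjusted p under 0.05, as did 17.1% of all genes, and limma voom called 0. DESeq2 called all 5, with adjusted p from 4.32e-08 (Trem1) to 0.0486 (Ch25h), among 1097 of 16138 genes called. Without the filter on low counts, edgeR called Trem1 (adjusted p = 0.0243), among 12 of 30440 genes called. The low dose libraries were all above vehicle for the 5 genes and for 6.93% of all genes. With DC-101, which shares the vehicle libraries, 0 of 5 passed in edgeR (0% of all genes), 2 had an unadjusted p under 0.05 (13.2% of all genes) and 2 were above vehicle in every library (5.25%). These were Trem1 (log2 change 1.14, SE 0.27, adjusted p = 0.309) and Fpr1 (1.15, SE 0.41, adjusted p = 0.336). DESeq2 called 1 of them, Trem1, among 372 of 16138 genes called, and limma voom called 0 of them. The other changes with DC-101 were 1.06 for Gpr84, 0.70 for Ch25h and 0.41 for Fpr2, with 95% intervals that included 0. As single libraries were left out, they ranged from 0.33 to 1.69, from 0.06 to 1.28 and from 0.16 to 0.87.

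Low dose regorafenib and DC-101, both of which act on VEGF receptor signaling, were also compared directly. The low dose was above DC-101 in every library for Trem1, Ch25h and Fpr2, and so it was for 5.48% of all genes. The log2 difference was 2.02 for Ch25h (95% interval -0.26 to 4.31), 1.5 for Gpr84 (-0.73 to 3.72), 1.33 for Fpr2 (0.31 to 2.35), 0.73 for Trem1 (0.08 to 1.38) and 0.63 for Fpr1 (-0.37 to 1.62). By edgeR 0 of 5 passed (0% of all genes), 2 had an unadjusted p under 0.05 (Trem1 and Fpr2, against 8.45% of all genes), and DESeq2 and limma voom called 0. The intervals included 0 for Gpr84, Ch25h and Fpr1.

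In the anti-PD1 experiment, Gpr84 and Ch25h were highest with the combination, followed by low dose regorafenib, anti-PD1 and vehicle. Gpr84 had 5.48, 0.254 and 2.94 CPM under vehicle, 12.6, 12 and 7.36 at the low dose, 9.51, 12.6 and 1.78 with anti-PD1, and 13.2, 18.4 and 20.6 with the combination. Ch25h had 40.8, 2.08 and 20.8 CPM under vehicle, 100.6, 115 and 92.8 at the low dose, 40.6, 69.2 and 13.9 with anti-PD1, and 117, 114 and 173 with the combination. For both genes the low dose and combination libraries were above all vehicle libraries, and vehicle replicate 2 (5 and 41 reads) and anti-PD1 replicate 3 were the lowest of their groups. The log2 change at the low dose was 1.87 (SE 0.83, adjusted p = 0.41) for Gpr84 and 2.27 (SE 0.80, adjusted p = 0.307) for Ch25h. With the combination it was 2.58 (SE 0.85) and 2.66 (SE 0.81), both with adjusted p = 0.483.

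Trem1 and the formyl peptide receptors stood differently. Trem1 had 12.1, 3.55 and 23.9 CPM under vehicle, 19, 27.0 and 14.9 at the low dose, 10.8, 13.7 and 12.3 with anti-PD1, and 15.7, 21.0 and 17.4 with the combination. Vehicle spanned nearly the range of all 12 libraries, and its mean log2 CPM was below those of the treated groups by less than its SD. Fpr1 had 3.29, 2.08 and 10.6 CPM under vehicle, 5.57, 3.60 and 3.41 at the low dose, 2.62, 2.33 and 3.76 with anti-PD1, and 10.8, 9.58 and 12.4 with the combination. Fpr2 had 11.7, 6.80 and 17 CPM under vehicle, 15.9, 17.5 and 11.7 at the low dose, 4.90, 5.33 and 10.5 with anti-PD1, and 19.5, 26.1 and 40.9 with the combination. Combination and vehicle overlapped for Fpr1 and did not for Fpr2. Vehicle replicate 3 had the highest vehicle value of Trem1, Fpr1 and Fpr2. The log2 change at the low dose was 0.62 (SE 0.51) for Trem1, -0.34 (SE 0.52) for Fpr1 and 0.34 (SE 0.41) for Fpr2, and with the combination 0.45 (SE 0.51), 1.04 (SE 0.52) and 1.28 (SE 0.42). The low dose change of Trem1 ranged from 0.18 to 1.36 as single libraries were left out. With the combination, Trem1 then ranged from 0.0093 to 1.2 and Fpr1 from 0.66 to 2.02, each lowest without vehicle replicate 2 and highest without vehicle replicate 3. Without vehicle 2 and low dose 2, the libraries of lowest mitochondrial share, the low dose changes of Trem1 and Fpr2 turned to -0.13 and -0.11, in an alternative chosen after the data were seen.

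In each of the 3 comparisons of the anti-PD1 experiment with its shared vehicle libraries, 0 of the 5 genes and 0% of all 16615 genes passed in edgeR. At an unadjusted p under 0.05, there were 2 members at the low dose (Gpr84 and Ch25h, 11.8% of all genes), 0 with anti-PD1 (13.7%) and 3 with the combination (Gpr84, Ch25h and Fpr2, 8.2%). The same members were above vehicle in every library, 2 at the low dose (6.68% of all genes), 0 with anti-PD1 (7.42%) and 3 with the combination (9.58%). DESeq2 called 1 member, Ch25h with the combination (adjusted p = 0.0476), among 147 of 16615 genes called there. With limma voom 0 members were called. With anti-PD1 the log2 change was -0.87 for Fpr1, -0.78 for Fpr2, -0.10 for Trem1, 0.96 for Ch25h and 1.45 for Gpr84. As single libraries were left out, Fpr2 ranged from -1.21 (without anti-PD1 replicate 3) to -0.42 (without vehicle replicate 3), Ch25h from 0.36 (without anti-PD1 replicate 2) to 1.83 (without vehicle replicate 1) and Gpr84 from 0.92 (without vehicle replicate 2) to 2.29 (without vehicle replicate 1). Without vehicle replicate 3, 2 of the changes with anti-PD1 and 1 at the low dose turned sign. Fpr1 went from -0.34 to 0.64 at the low dose and from -0.87 to 0.11 with anti-PD1, and Trem1 with anti-PD1 from -0.10 to 0.64. The fitted -0.10 of Trem1 also had the opposite sign to its mean log2 CPM, 3.62 ± 0.17 with anti-PD1 and 3.35 ± 1.38 under vehicle (SD, n = 3 each).

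**Figure D2:**
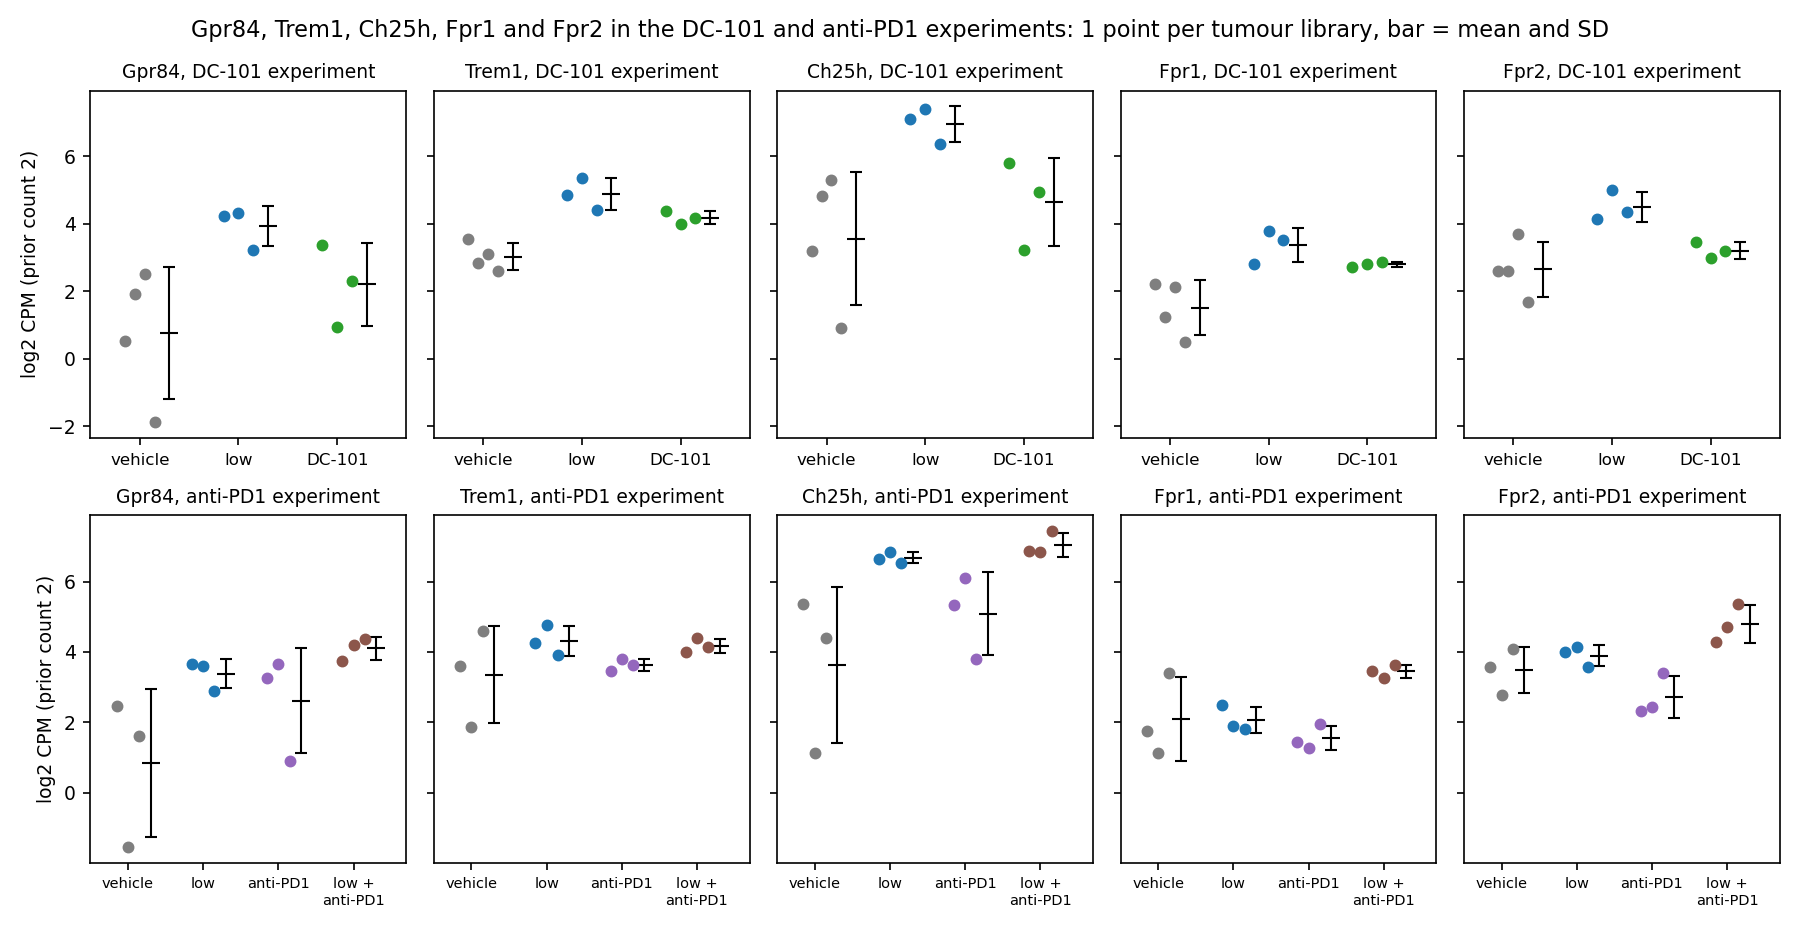
Levels of the 5 genes in the DC-101 experiment (upper row, vehicle n = 4, other groups n = 3) and in the anti-PD1 experiment (lower row, n = 3 per group), in log2 CPM (prior count 2) on the y axis, with 1 point per tumor library and a bar at the mean with its SD. The vehicle libraries of Gpr84 and Ch25h are widely spread in both experiments, and their low dose libraries lie above all of them.

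The ranges of the monocyte and macrophage markers overlapped between the groups of these experiments, unlike in the dose experiment, and those of the neutrophil markers separated low dose from vehicle in the DC-101 experiment. The summed monocyte and macrophage markers were 4672 to 6974 CPM under vehicle, 4215 to 6694 at the low dose and 4861 to 9685 with DC-101, and in the anti-PD1 experiment 5351 to 11317 under vehicle, 5007 to 21814 at the low dose, 7340 to 12636 with anti-PD1 and 7041 to 10011 with the combination. All of these ranges overlapped with that of their vehicle. Neutrophil markers were 149 to 369 CPM under vehicle, 395 to 1045 at the low dose and 220 to 755 with DC-101, so that the low dose and vehicle ranges did not overlap in the DC-101 experiment. In the anti-PD1 experiment they were 179 to 671 under vehicle, 120 to 314 at the low dose, 265 to 290 with anti-PD1 and 324 to 421 with the combination. The part of these cells in the changes of the members was not tested. With the monocyte and macrophage score as a covariate, the low dose log2 changes in the DC-101 experiment were 1.89 for Gpr84, 1.72 for Trem1, 2.08 for Ch25h, 1.66 for Fpr1 and 1.33 for Fpr2.

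The low dose was tested over both experiments that did not choose the genes, with 6 low dose and 7 vehicle libraries and the experiment as a term. The log2 change was 2.5 (SE 0.65, 95% interval 1.10 to 3.90) for Ch25h, 2.23 (SE 0.67, 0.78 to 3.67) for Gpr84 and 1.28 (SE 0.40, 0.42 to 2.14) for Trem1. For the receptors it was 1.09 (SE 0.37, 0.29 to 1.88) for Fpr2 and 0.81 (SE 0.52, -0.31 to 1.93) for Fpr1. None passed in edgeR, with adjusted p of 0.151 (Ch25h), 0.214 (Gpr84), 0.233 (Trem1), 0.269 (Fpr2) and 0.63 (Fpr1), where 68 of 16731 genes (0.406%) passed. All but Fpr1 had an unadjusted p under 0.05 (0.00206 to 0.0116), as had 11.2% of all genes. DESeq2 called 3, Ch25h (adjusted p = 0.00386), Gpr84 (0.0227) and Trem1 (0.0477), among 465 of 16731 genes called. By limma voom 0 members were called, with 5 at an unadjusted p under 0.05. When the anti-PD1 experiment lacked its vehicle replicate 3, edgeR called Trem1 (log2 change 1.65, adjusted p = 0.0486), among 74 of 17116 genes called.

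The low dose change was larger in the DC-101 than in the anti-PD1 experiment by 2.14 for Fpr1, 1.41 for Fpr2, 1.26 for Trem1, 0.71 for Gpr84 and 0.47 for Ch25h on the log2 scale. For Gpr84 and Ch25h the direction turned with a hepatocyte score as a covariate (-1.10 and -1.26). It also turned when the anti-PD1 experiment lacked its vehicle replicate 1 (-0.15 and -0.42). The difference was 0.50 to 1.71 for Trem1, 1.14 to 2.52 for Fpr1 and 1.05 to 1.86 for Fpr2 as single libraries were left out. The medians of liver markers had opposite signs at the low dose of these experiments. The median log2 change was 3.16 for 12 hepatocyte and 3.15 for 5 Kupffer cell markers in the DC-101 experiment, and -1.66 and -3.65 in the anti-PD1 experiment, with 0 of either list past the threshold in edgeR. At an unadjusted p under 0.05, 2 hepatocyte and 2 Kupffer cell markers were higher in the former (17.1% of all genes), and 6 hepatocyte and 5 Kupffer cell markers lower and 1 hepatocyte marker higher in the latter (11.8% of all genes). Their part in the difference was not tested beyond that covariate. In the test of this difference, 0 of the 5 genes and 0% of all genes passed in edgeR, and DESeq2 and limma voom called 0 of the 5. Fpr1 (adjusted p = 0.423) and Fpr2 (adjusted p = 0.485) had an unadjusted p under 0.05, as had 10.2% of all genes. The 95% interval was 0.32 to 3.95 for Fpr1 and -2.36 to 3.31 for Ch25h, which includes differences of either direction.

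**Figure D3:**
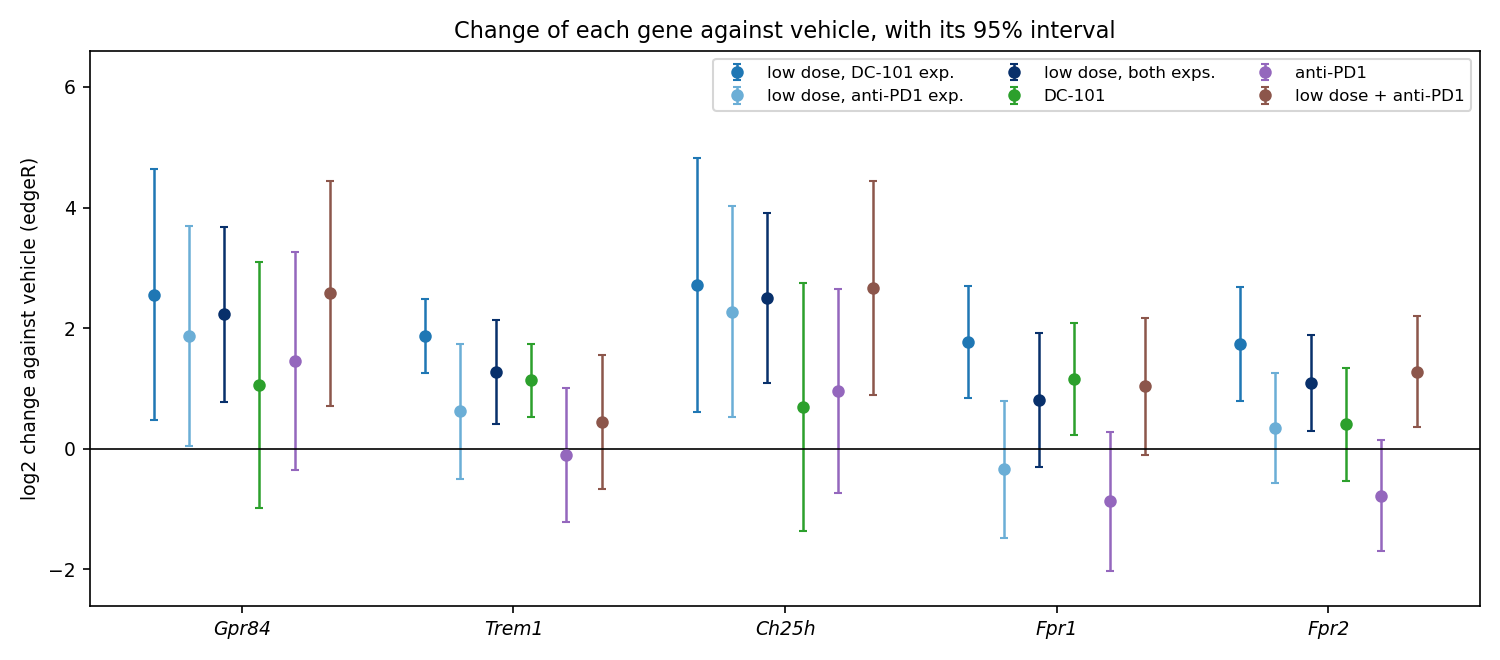
Log2 change of each gene against vehicle by edgeR (y axis), as a point with its 95% interval, for low dose regorafenib in the DC-101 experiment, in the anti-PD1 experiment and in both together, and for DC-101, anti-PD1 and the combination. In the joint estimates the interval of Fpr1 includes 0 and those of the other 4 genes do not, while none passed the adjusted threshold.

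None of the other listed pathway genes passed at the low dose in both experiments together, although some had log2 changes as large as those of Trem1 and Fpr2. In edgeR 0 of the 13 chemoattractant receptors, 12 TREM genes, 12 oxysterol genes, 7 tested metabolite receptors, 20 macrophage activation genes and 5 tested formyl peptide receptor relatives or ligands passed. At an unadjusted p under 0.05, 4 macrophage activation genes were higher and 0 lower, against 11.2% of all genes in either direction (median log2 change 0.50, against 0.03 over all genes). The experiments differed in sign for this list, with 8 higher and 0 lower in the DC-101 experiment (median 1.22, 17.1% of all genes) and 0 higher and 3 lower in the anti-PD1 experiment (median -0.36, 11.8% of all genes). That difference was past the threshold in edgeR for 0 of the 20 genes. Among the named genes with the smallest p, Trem3 had a log2 change of 1.29 (adjusted p = 0.228), Treml1 of -1.25 (adjusted p = 0.175), Ccr2 of 1.22 (adjusted p = 0.239) and Gpr183 of 0.68 (adjusted p = 0.251). In the DC-101 experiment alone, the leukotriene B4 receptor gene Ltb4r1 rose at the low dose (log2 change 1.89, adjusted p = 0.0229), 1 of the 4 genes called in that comparison. In the dose experiment, 0 genes of these lists passed at the low dose in edgeR. At an unadjusted p under 0.05, as 4.94% of all genes had, 4 chemoattractant receptors and 1 oxysterol gene were higher, 1 metabolite receptor was lower, and the activation genes were split into 5 higher and 5 lower.

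Over all 32 libraries, the closest patterns among the 5 genes were those of 2 pairs, Gpr84 with Ch25h and Fpr1 with Fpr2. The likeness of patterns was measured as Pearson's r of log2 CPM minus the vehicle mean of the same experiment, over 15429 genes that passed the filter in all 3 experiments, as a description without a test, since libraries of a group share their treatment, experiment and cell makeup. For Gpr84 the most similar gene was Ch25h (r = 0.98), followed by the phosphatase genes Ptpn6 and Ptpn7 (both 0.94), and for Ch25h it was Gpr84, followed by AI504432 (0.93) and Ptpn7 (0.92). Fpr1 was most similar to Fpr2 (0.91), the kinase gene Fgr (0.83) and Slc16a6 (0.82). Fpr2 was most similar to Gm6201, Fpr1 (both 0.91) and the NK receptor family gene Klra2 (0.90). For Trem1 these were the scavenger receptor gene Msr1 (0.93), Samsn1 (0.90) and the integrin gene Itgam (0.89), and no member was among them. In the 22 libraries outside the dose experiment, which did not choose Trem1, they were instead Fgr (0.85), Samsn1 (0.85) and Nabp1 (0.84), and Msr1 and Itgam were not among the first 10. Neighboring genes Fpr1 and Fpr2 have separate annotated exons, and near-identical stretches that could split reads between them were not examined.

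The pairs did not rest on the dose experiment or on the group means. In the 22 libraries outside the dose experiment, r was 0.98 for Gpr84 and Ch25h and 0.88 for Fpr1 and Fpr2, and in both pairs each gene was the most similar to the other. After the group means were removed, r over 32 libraries was 0.97 for Gpr84 and Ch25h and 0.76 for Fpr1 and Fpr2, whereas it was 0.46 for Gpr84 and Trem1, 0.51 for Trem1 and Ch25h and 0.23 for Gpr84 and Fpr1. With the group means kept, Trem1 had r of 0.84 with Gpr84 and 0.80 with Ch25h over 32 libraries, and of 0.70 and 0.69 outside the dose experiment. Libraries of 1 group that were low in Gpr84 were thus low in Ch25h. Examples are the fourth vehicle library of the DC-101 experiment and the second of the anti-PD1 experiment. By Spearman's rho over 32 libraries, the values were 0.97 for Gpr84 and Ch25h, 0.88 for Fpr1 and Fpr2 and 0.53 for Gpr84 and Fpr1.

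**Figure D4:**
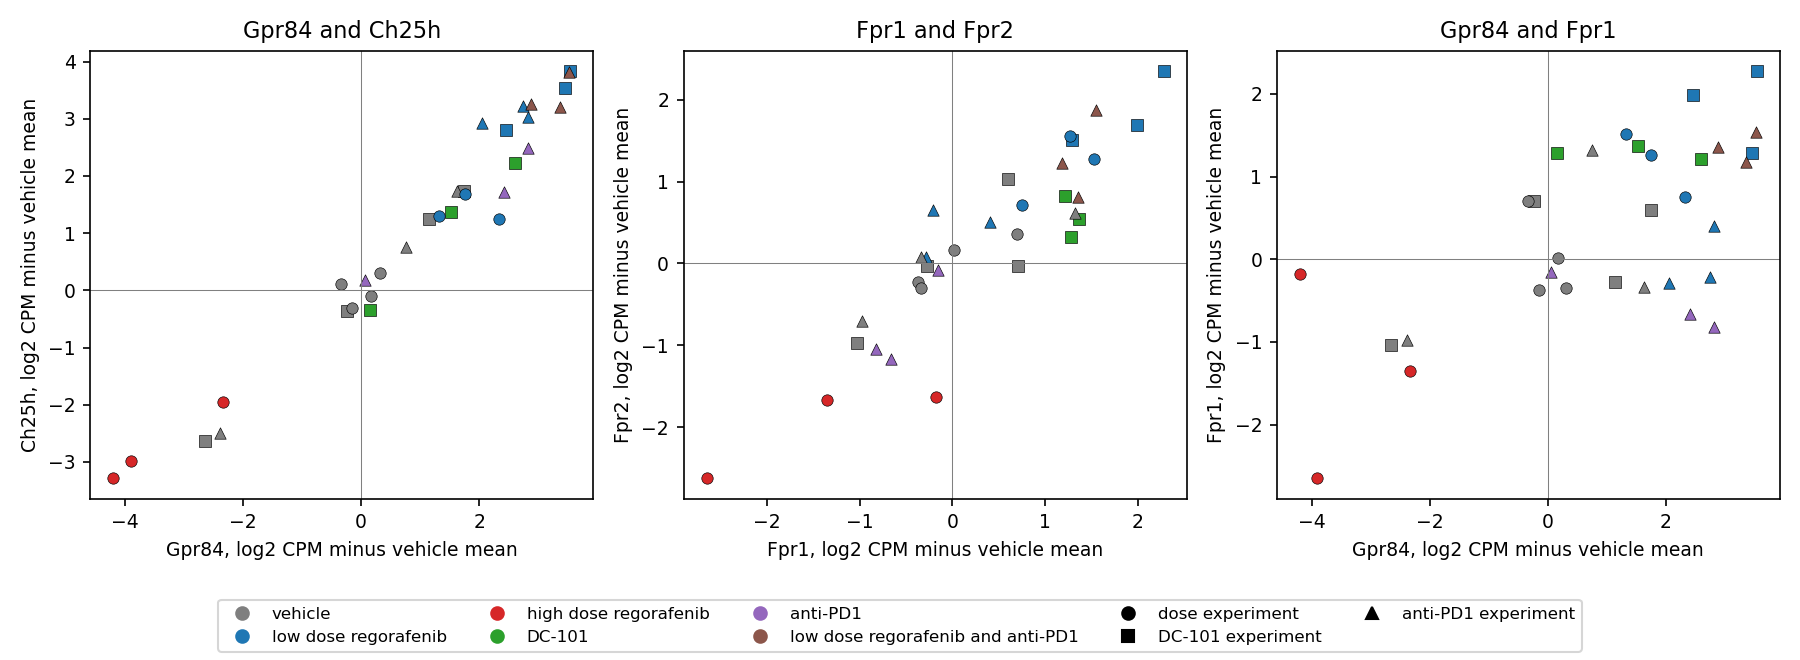
Log2 CPM of 1 gene against another, each minus the vehicle mean of its own experiment, in 32 libraries (color for treatment, shape for experiment), for Gpr84 and Ch25h, Fpr1 and Fpr2, and Gpr84 and Fpr1. The first pair lies closest to a line (r = 0.98), the second is wider (r = 0.91), and Gpr84 and Fpr1 scatter most (r = 0.64).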

How the data were processed

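Tumor RNA was sequenced in 32 libraries, as read pairs from a stranded mRNA kit. According to the submitters' processing notes and methods, the authors trimmed reads with cutadapt (2.4) and aligned them to GRCm38 with STAR (2.7.2a). The deposited values are raw counts per GENCODE gene, without normalization by the authors, and which strand column of STAR was taken is not given in the sources used here. Of 54446 identifiers, 37 could not be matched to GENCODE vM21. Groups came from the labels. Each experiment was fitted with edgeR 4.0.16 (R 4.3.3): filterByExpr (minimum count 10, minimum total 15), TMM, robust quasi-likelihood F-test (2-sided), Benjamini-Hochberg adjustment over all genes and a threshold of 0.05. The joint low dose fit had the experiment as a term. CPM used TMM-scaled totals, log2 CPM a prior count of 2, and TPM exonic lengths. None of 36 within-group pairs was a duplicate by a chi-square test. The labels do not tie libraries to animals, although the study describes the anti-PD1 libraries as separate tumors, so p-values measure the spread between these samples.

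The members and all lists were chosen with earlier results of these data known, so no list is independent evidence. Named genes are the members, the 3 genes most like each by Pearson's r, and up to 4 genes past the threshold with the smallest adjusted p from each list, or the 2 with the smallest p where none passed. Cyp27a1, Cyp7b1 and Pglyrp1 are also named, after their values were seen. Alternatives were DESeq2 1.42.0, limma 3.58.1 voom, other scaling, no filter, covariates, a replicate block and leaving out libraries. The code was tested on simulated data.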

Additional observations from a re-analysis of the deposited data

How the results depend on the processing

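Of 935 log2 changes of the members under the alternatives, 879 kept their direction and side of the threshold, 22 passed it newly, 10 no longer did, 10 untested values moved by more than their spread and 14 changed sign. Members past the threshold went from 0 to 1 in the dose experiment at the low dose (DESeq2), to 5 in the DC-101 experiment at the low dose (DESeq2; 1 with no filter on low counts), to 1 with DC-101 (DESeq2), to 1 with the combination (DESeq2) and to 3 in the joint fit (DESeq2, or all 3 experiments, which include libraries that chose the genes). Of Fpr1 and Fpr2, the count of 1 for high against low dose became 2 with total count scaling, DESeq2, limma voom or a hepatocyte score as a covariate, and 0 with only the groups compared or the macrophage score as a covariate. For high dose against vehicle it became 0 with the same 2 settings. Leaving out 1 library gave 0 to 1 for high dose against vehicle (0 without any vehicle replicate). It gave 1 to 2 for high against low dose (2 without high dose replicate 1 or 3). In the joint fit it gave 0 to 1. Over all genes, the calls of high dose against vehicle fell from 2582 to between 15 and 83 without 1 vehicle replicate. Those of high against low dose went from 697 to 4488 without high dose replicate 3.

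Replicate numbers did not pair the libraries: same-numbered deviations correlated above 0.1 in 2 of 9, 4 of 9 and 6 of 18 pairs. A replicate block left 0 of Fpr1 and Fpr2 past the threshold in both high dose comparisons, with 1 of 16525 genes passing in each. Fpr2 had an edgeR adjusted p of 0.192 against vehicle and 0.102 against the low dose. Under the block, the difference of the low dose changes between the experiments was -0.0033 for Gpr84 and -0.32 for Ch25h. That difference was -1.10 for Gpr84 and -1.26 for Ch25h with a hepatocyte score, and -0.15 (Gpr84) and -0.42 (Ch25h) when the anti-PD1 experiment lacked its vehicle replicate 1, the lowest of ranges that reached 1.32 and 1.04 as single libraries were left out. The log2 change of Trem1 with anti-PD1 became 0.25 with limma voom, 0.33 with a hepatocyte score and, as single libraries were left out, -0.54 to 0.64. That of Fpr1 was then -0.72 to 0.64 at the low dose and -1.25 to 0.11 with anti-PD1. The positive values came without vehicle replicate 3. Without both libraries of lowest mitochondrial share, chosen after seeing the data, Trem1 and Fpr2 at the low dose were -0.13 and -0.11 and Trem1 with the combination -0.0094. The cause of these changes was not tested.

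Groups of 3 or 4 libraries limit all tests, and the high dose values of Gpr84 and Trem1 rest on 2 to 18 reads per library. A missed threshold does not show that a gene was unchanged.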
